A study of Mus musculus with 6 samples.

Results

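The 44 DNA replication genes described here are a named list, and all 44 were among the 32285 genes of the count matrices. They comprised 4 origin licensing genes (Orc1, Orc6, Cdc6, Cdt1), the 6 subunits of the MCM helicase (Mcm2 to Mcm7), 6 genes of origin firing and of the active helicase (Mcm10, Cdc45, Gins1 to Gins4) and 9 polymerase and primase genes (Pola1, Pola2, Prim1, Prim2, Pold1, Pold2, Pold3, Pole, Pole2). The remainder were the sliding clamp Pcna with its 5 loader subunits (Rfc1 to Rfc5), 3 single-strand binding genes (Rpa1 to Rpa3), the lagging strand enzymes Fen1 and Lig1, 4 genes of nucleotide supply (Tyms, Rrm1, Rrm2, Tk1), and 4 genes of histone and chromatin supply (Slbp, Uhrf1, Chaf1a, Chaf1b). They were chosen by name and role, with earlier results of these data known.

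Bone marrow cells carrying CD11b, an integrin of neutrophils, monocytes and macrophages, were selected with magnetic beads from 2-month-old C57Bl/6 mice and profiled with 10x Genomics 3′ single-cell RNA sequencing. There were 3 Femur and 3 Mandible libraries, and no library was treated or carried an introduced allele. Femur replicate 1 came from a female, and the other 5 libraries came from males. Mandible marrow was flushed after the molars had been pulled, tooth sockets included, and the labels describe femur and tibia marrow for the Femur group where the study's methods name the femur alone. Neither states how many mice went into a library, so p-values measure only the spread between these libraries, which may be partly technical. The library names carry a number, which is 6 for femur replicate 2 and mandible replicate 1, and 7 for femur replicate 3 and mandible replicate 2, and what the number stands for is not stated.

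DNA replication begins when the origin recognition complex, Cdc6 and Cdt1 load the MCM helicase onto origins in G1 phase. Cdc45, the GINS complex and Mcm10 then turn it into the active helicase at the start of S phase. Polymerase alpha with primase lays the primers, polymerases delta and epsilon copy the strands on the PCNA clamp, RPA coats single strands, and Fen1 and Lig1 join the lagging strand. In marrow these genes are known to be high in dividing precursors and low in mature neutrophils, which no longer divide. Many of them are known targets of the E2F transcription factors.

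The promoter sequences of the members (RefSeq, build GRCm38.p6, 250 bases before to 50 after a transcript start) were available for 37 of the 44 genes, without Mcm4, Gins1, Gins2, Gins4, Rfc2, Prim2 and Pole. One of the E2F core motifs TTTCCCGC, TTTGGCGC, TTTCGCGC or TTTGCCGC, searched on both strands, stood in the promoter of 15 of the 37 members (40.5%), and in 704 of all 27025 genes with a promoter entry (2.61%). The 15 were Cdc6, Cdt1, Orc1, Mcm3, Mcm5, Mcm6, Mcm7, Gins3, Pola1, Pold1, Pold3, Pole2, Rfc3, Lig1 and Uhrf1. Of 36 other replication genes, from a list used further on, 11 (30.6%) held an E2F core motif. The motif CCAAT, the core of the NF-Y site, stood in 24 of the 37 members (64.9%), in 16 of the 36 other replication genes (44.4%) and in 41.1% of all genes. TTTCCCGC was present in 7 members, TTTCGCGC in 7, TTTGGCGC in 6 and TTTGCCGC in 0, and matches on opposite strands can overlap, as they do in Mcm5 and Mcm6. A match is a run of letters and not a measured binding site. The windows below show a single match each for some of the members whose values are given in each library further on. Mcm5, Mcm6 and Mcm7 hold further matches, and Mcm3, Cdt1, Pold1 and Pold3 also hold matches that are not shown. The motif, as read on the gene's strand, is in capitals.
Mcm5, chr8:75109345-75109374, plus strand, motif start 153 bases before the transcript start: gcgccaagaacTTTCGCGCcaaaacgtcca
Mcm6, chr1:128359734-128359763, minus strand, 47 bases before the start: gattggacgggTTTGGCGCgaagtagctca
Mcm7, chr5:138172030-138172059, minus strand, 165 bases before the start: aatttcgaaccGCGGGAAAcagggtgtcca
Cdc6, chr11:98908002-98908031, plus strand, 138 bases before the start: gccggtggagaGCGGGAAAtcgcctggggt
Gins3, chr8:95633507-95633536, plus strand, 41 bases before the start: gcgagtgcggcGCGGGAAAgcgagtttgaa
Pola1, chrX:93632275-93632304, minus strand, 138 bases before the start: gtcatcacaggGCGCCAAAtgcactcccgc
Lig1, chr7:13278841-13278870, plus strand, 26 bases after the start: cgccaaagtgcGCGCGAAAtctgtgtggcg

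The files held 7763 to 22797 cells per library that the authors had kept, 69776 in all, with medians of 6924 to 9158 unique molecular identifiers (UMIs, each standing for 1 captured RNA molecule) per cell. Itgam, which encodes CD11b, measured 682 to 974 UMIs per 1000000 UMIs (CPM) over the libraries. Library pairs shared between 15 and 70 cell barcodes, at most 0.651% of the smaller library. Cells carry the authors' cluster numbers 0 to 8, an ImmGen reference label and a cell cycle phase call. In cluster 4 the summed immature neutrophil markers (Ltf, Camp, Ngp, Lcn2, Cebpe) measured 91423 to 100259 CPM and the neutrophil precursor markers (Elane, Mpo, Prtn3, Ctsg, Fcnb) 2917 to 4758 CPM, against 747 to 817 CPM for the monocyte markers. Cluster 5 held monocyte markers at 3158 to 5484 CPM beside 14082 to 36584 CPM of immature neutrophil markers, so it is called by its number here. Its cells with the Monocytes label carried the 6 monocyte markers (Ly6c2, Ccr2, Csf1r, Fn1, F13a1, Ms4a6c) at 6206 to 8016 CPM, beside immature neutrophil markers at 1657 to 3478 CPM in 5 libraries and at 6990.3 CPM in femur replicate 3, where they exceeded its monocyte markers.

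The first question was where in the marrow the replication genes were transcribed. The 44 members together made up 2046 to 2622 CPM in cluster 4, and 182 to 225 CPM in clusters 1, 2 and 3, whose libraries did not overlap with those of cluster 4. Cluster 6 spanned 1833 to 3482 CPM, cluster 8 446 to 2941 CPM from as few as 11 cells, and cluster 5 774 to 1665 CPM. Cluster 0 lay at 213 to 265 CPM and cluster 7 at 227 to 586 CPM. Of the 44 members, 17 were highest in cluster 4, 22 in cluster 6 and 5 in cluster 8. Since the clusters were built from these same cells, the differences between them are a description with no test. UMIs of 3′ libraries count molecules by 1 end, so levels of different genes were set side by side without a length correction, although capture may still differ between genes.

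**Figure D1:**
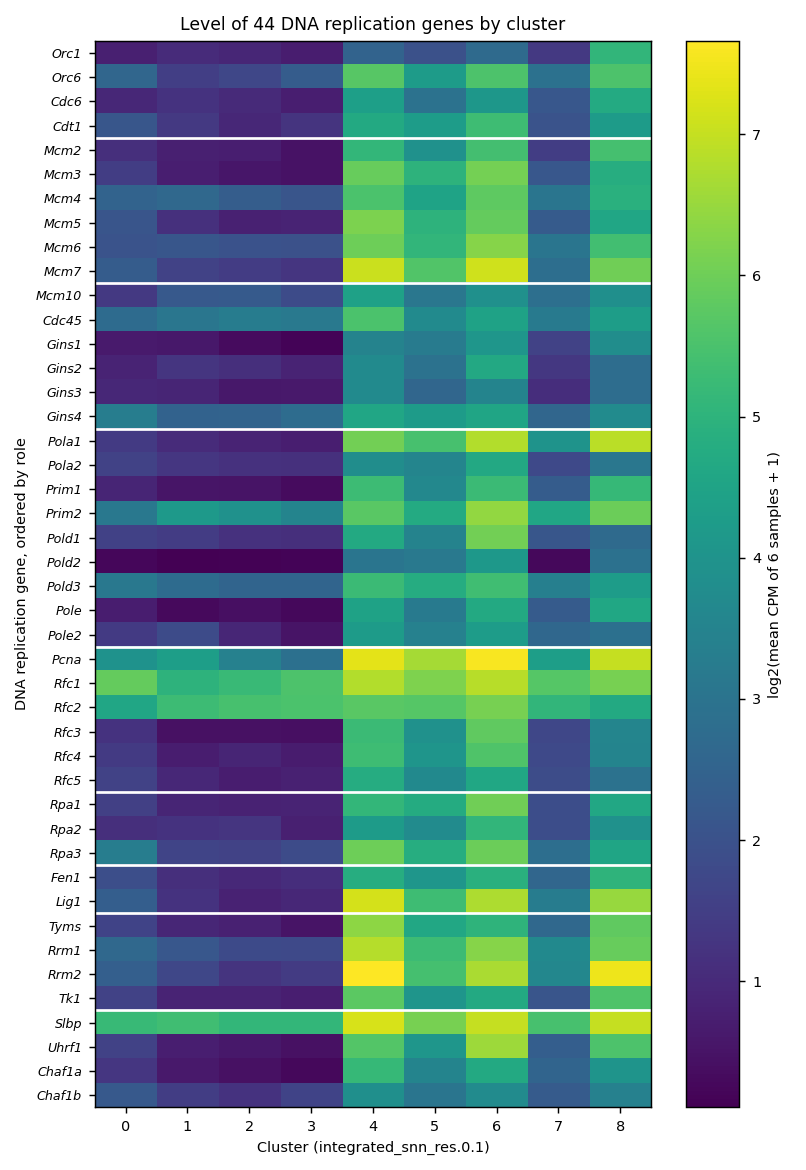
Level of each of the 44 DNA replication genes (rows, ordered by role, white lines between roles) in clusters 0 to 8 (columns), as log2 of the mean CPM of the 6 libraries plus 1. Clusters 4, 6 and 8 and, less so, cluster 5 are bright for most genes, while Rfc1, Rfc2 and Slbp are also bright in clusters 0 to 3.

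The fold between cluster 4 and the mean of clusters 1 to 3 had a median of 22.6 over the members and exceeded 50 for 16 of them. Lig1, the ligase that seals lagging strand fragments, was 144-fold higher. Tyms, the thymidylate synthase, was 121-fold higher, and Mcm3, a helicase subunit, was 115-fold higher. Rrm2, the S phase subunit of ribonucleotide reductase, was 114-fold higher. At the other end were 5 members under 5-fold. Rfc2, a subunit of the clamp loader, measured 52.5 CPM in cluster 4 and 42.2 CPM over clusters 1 to 3, a fold of 1.25. Rfc1, the large subunit of that loader, was 2.92-fold higher, Prim2 3.72-fold, Slbp, the histone mRNA binding protein, 4.08-fold, and Gins4 4.57-fold. Rfc1, Rfc2 and Slbp together made 56.6% of the summed members in clusters 1 to 3 and 13.3% in cluster 4, so most of the low level in those clusters came from 3 genes.

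Across the 54 sums of 9 clusters and 6 libraries, log2 CPM of a member followed that of the other members summed with Pearson's r above 0.9 for 27 of 44 genes. The highest r was 0.985, for Mcm6. Rfc2 stood apart at 0.0757, and the next lowest was Orc1 at 0.745, the origin recognition subunit that was highest in cluster 8. Of 7155 genes with a mean of 10 CPM or more, the non-members most like the summed members included Cenpk, Cdca4, Dut, Cbx3, Anapc5, Bard1, Ncaph, H2afx and Hist1h2bm, with r from 0.975 to 0.980. These points share libraries, depth and the clustering, so the correlations are a description.

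The 6 members with the highest level in cluster 4 were Rrm2, Pcna, Slbp, Lig1, Mcm7 and Rrm1, and their values differed little between sites. Rrm2 measured 221, 205 and 189 CPM in the femur libraries and 200.001, 187 and 208 CPM in the mandible libraries. Pcna, the sliding clamp, measured 199.7, 169 and 156 CPM in the femur libraries and 169.6, 131 and 156 CPM in the mandible libraries. Slbp measured 145, 141 and 159 CPM in the femur libraries and 151, 131 and 146 CPM in the mandible libraries. The sites overlapped for all 3 genes. Lig1 measured 161, 150.2 and 135 CPM in the femur libraries and 153, 137 and 123 CPM in the mandible libraries. Mcm7 measured 159.7, 162 and 96.2 CPM in the femur libraries and 149, 137 and 88.9 CPM in the mandible libraries. Rrm1, the large subunit of ribonucleotide reductase, measured 139, 112 and 97.5 CPM in the femur libraries and 116, 97.1 and 106 CPM in the mandible libraries. Mcm7 had the widest spread of these, with femur replicate 3 and mandible replicate 3 low, and its sites overlapped like those of Lig1 and Rrm1. The log2 fold changes of the 6, mandible over femur, ran from -0.17 ± 0.11 (SE) for Pcna to -0.02 ± 0.08 (SE) for Rrm2, and their adjusted p from 0.535 to 0.949 (edgeR quasi-likelihood test). Without single libraries Pcna ranged from -0.27 to -0.090.

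The comparison of sites within cluster 4 called 0 of the 44 members at a false discovery rate of 0.05, where 0.0245% of 12265 genes were called. DESeq2 called 0 members and 1.23% of all genes with an adjusted p. The members leaned slightly to the femur, with 32 lower and 12 higher in the mandible and a median log2 fold change of -0.09, beside 0.00 for all genes tested. The median became -0.17 when mandible replicate 1 was left out, and -0.05 when mandible replicate 2 or femur replicate 1 was. An unadjusted p under 0.05 was reached by 8 members, all lower in the mandible, and by 0 that were higher, where 6.81% of all genes reached it lower and 6.21% higher. Every mandible library lay below every femur library for 9 members, against 10.1% of all genes, and above for 0, against 5.90%. The log2 fold changes ran from -0.39 to 0.21. The summed members measured 2622, 2391 and 2219 CPM in the femur libraries and 2317, 2046 and 2263 CPM in the mandible libraries, which overlapped.

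The 8 members came from 6 of the roles. Cdc6, which loads the helicase, measured 22.5, 21.4 and 23.2 CPM in the femur libraries and 18.7, 15.5 and 16.1 CPM in the mandible libraries. Its libraries did not overlap, and the log2 fold change was -0.39 ± 0.12 (SE) with an adjusted p of 0.2804 (edgeR). Orc6, an origin recognition subunit, measured 57.5, 53.6 and 56.3 CPM in the femur libraries and 47.3, 45.6 and 42.9 CPM in the mandible libraries. These did not overlap either, at -0.27 ± 0.09 (SE). Mcm6 measured 75.6, 67.4 and 59.9 CPM in the femur libraries and 57.8, 54.1 and 61.3 CPM in the mandible libraries, where femur replicate 3 lay below mandible replicate 3. Gins3 of the GINS complex measured 14.98, 13.8 and 12.3 CPM in the femur libraries and 12.1, 8.597 and 11.4 CPM in the mandible libraries, without overlap and at -0.33 ± 0.13 (SE).

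Pola1, the catalytic subunit of polymerase alpha, measured 85.6, 70.4 and 65.9 CPM in the femur libraries and 62.9, 49.3 and 58.9 CPM in the mandible libraries. The sites did not overlap, and the log2 fold change was -0.34 ± 0.10 (SE). Without single libraries it ranged from -0.43 to -0.27. Pola1 lies on chromosome X, and its highest library, femur replicate 1, was the only one from a female. The part of sex was not tested. Pold3, an accessory subunit of polymerase delta, measured 43.3, 37.7 and 41.5 CPM in the femur libraries and 34.03, 31.8 and 35.3 CPM in the mandible libraries. Rfc1 measured 133, 109.9 and 123 CPM in the femur libraries and 98.5, 92.2 and 103 CPM in the mandible libraries. Both were lower in every mandible library, at -0.25 ± 0.09 (SE) and -0.29 ± 0.09 (SE). Chaf1a, the large subunit of the histone chaperone CAF-1, measured 38.9, 38.2 and 36.7 CPM in the femur libraries and 31.4, 29.8 and 35.8 CPM in the mandible libraries, again without overlap. The adjusted p of the 8 ran from 0.280 to 0.357.

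The 3 members with the largest positive values in cluster 4 did not reach an unadjusted p under 0.05. Pold2, a small subunit of polymerase delta, measured 7.25, 6.83 and 6.24 CPM in the femur against 7.204, 6.503 and 9.36 CPM in the mandible. Rpa2, of the single-strand binding complex, measured 17.8, 17.3 and 17.1 CPM in the femur against 17.8, 15.5 and 23.7 CPM in the mandible. Mcm5 measured 75.95, 70.3 and 61.7 CPM in the femur against 74.4, 63.2 and 83.2 CPM in the mandible. For all 3 the highest library was mandible replicate 3 and the sites overlapped, with log2 fold changes of 0.21 ± 0.14 (SE), 0.15 ± 0.13 (SE) and 0.12 ± 0.09 (SE). Without single libraries Pold2 ranged from 0.085 to 0.30 and Mcm5 from 0.061 to 0.19. By role, all 6 firing genes and 8 of 9 polymerase and primase genes had negative values, while the MCM helicase and the clamp with its loader were split, with 3 positive and 3 negative each.

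The cells with the Neutrophils label made up 90.9% to 98.0% of cluster 4, so their values repeat those of the cluster, with 0 members called (0.0250% of all genes called), 34 negative and 10 positive values and a median of -0.12. In its S-called cells 0 members were called (0.00926% of all genes), 34 values were negative and the median was -0.15. Leaving out 1 library at a time moved the first of these medians between -0.19 and -0.04 (without mandible replicates 1 and 2) and the second between -0.30 and -0.06 (without mandible replicate 1 and femur replicate 1). The summed markers of neutrophil precursors measured 2917 to 3579 CPM in the femur libraries and 3360 to 4758 CPM in the mandible libraries of this cluster, and the mature neutrophil markers 936 to 2330 CPM and 1745 to 2841 CPM. Some lists named for other cells were higher in every mandible library. The T and NK markers (Cd3d, Cd3e, Nkg7, Klrb1c) measured 80.3 to 94.6 CPM in the femur and 105 to 136 CPM in the mandible. Only 1 cell of the cluster carried the NK cells label and 1 the T cells label, so this list is no measure of such cells here. The B lineage markers measured 2.34 to 8.35 CPM and 8.37 to 19.7 CPM. The tooth and bone markers, of which 1 of 5 was at 0, measured 1.22 to 1.84 CPM and 11.8 to 13.7 CPM. The other lists, among them the macrophage, dendritic cell, erythroid and megakaryocyte markers, overlapped between sites. The part of any list in the members' values was not tested. Of the cells in cluster 4, 99.1% to 99.3% were called S or G2M in the femur libraries and 97.8% to 98.7% in the mandible libraries.

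**Figure D2:**
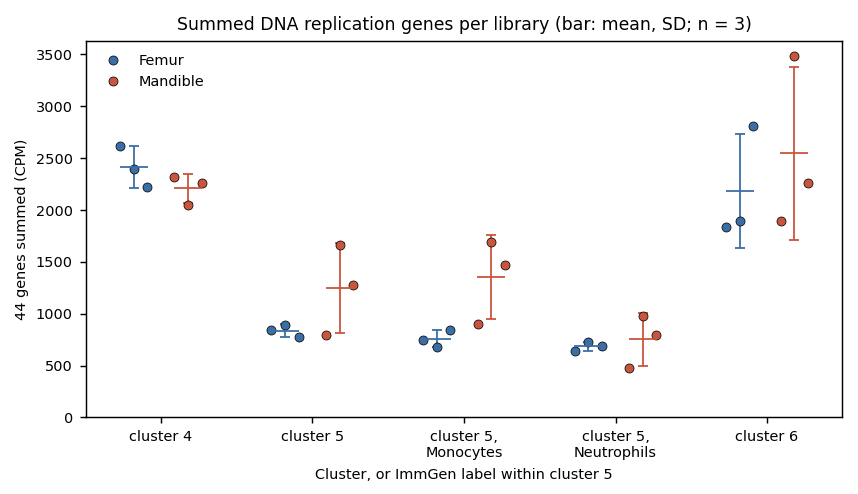
Summed CPM of the 44 genes (vertical axis) in each library (points) for clusters 4, 5 and 6 and for the Monocytes and Neutrophils labels of cluster 5, with the mean and SD of 3 libraries per site. Mandible replicates 2 and 3 stand above the femur libraries in cluster 5 and its Monocytes label, while the sites overlap in clusters 4 and 6.

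In cluster 5 all 44 members had higher fitted values in the mandible, with a median log2 fold change of 0.57 beside -0.01 for all genes tested, and none of the 44 passed the test. The count called was 0 members of 0 genes (0% of 13765) by edgeR and 0 members by DESeq2, which called 0.519% overall. An unadjusted p under 0.05 was reached by 14 members that were higher and 0 that were lower, where 3.25% of all genes reached it higher and 3.86% lower. Every mandible library exceeded every femur library for 5 members, against 7.32% of all genes, and lay below for 0, against 4.29%. The summed members measured 845, 893 and 774 CPM in the femur and 799, 1665 and 1274 CPM in the mandible, so mandible replicate 1 lay within the femur range. Without mandible replicate 2 the median fell to 0.26 and without mandible replicate 1 it was 0.87. In the library pair with number 6, 8 of 44 members were higher in the mandible (median log2 ratio -0.22), and in the pair with number 7 all 44 were (1.28). Marker lists of other cells also varied over these libraries. The neutrophil precursor markers measured 159, 197 and 403 CPM in the femur and 118, 651 and 442 CPM in the mandible. The erythroid markers measured 146 to 585 CPM in the femur and 580 to 1292 CPM in the mandible, and the B lineage markers 20.5 to 32.5 CPM and 32.4 to 74.4 CPM, both highest in mandible replicates 2 and 3. The stem and progenitor markers measured 25.1, 23.6 and 29.1 CPM in the femur and 18.4, 45.5 and 46.4 CPM in the mandible, and the T and NK markers 9.57 to 23.9 CPM and 7.23 to 47.4 CPM, with the same 2 mandible libraries highest. The tooth and bone markers were higher in the mandible without overlap, at 96.1 to 1630.4 CPM against 1.70 to 13.8 CPM. The dendritic cell markers summed lower without overlap, at 648 to 1193 CPM against 1430 to 2440 CPM. H2-Aa and H2-Ab1 made most of that sum, at log2 fold changes of -0.98 and -1.10. Flt3 and Siglech of the same list went the other way, at 0.45 and 1.53. All genes of these lists were detected, and their part in the members' values was not tested.

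Among these 14 members, the nucleotide supply gene Tyms measured 12.3, 16.01 and 16.004 CPM in the femur libraries and 17.7, 46.6 and 35.3 CPM in the mandible libraries. Rrm1 measured 28.9, 28.7 and 25.7 CPM in the femur libraries and 26.5, 65.3 and 52.2 CPM in the mandible libraries. Tyms had the largest log2 fold change of the members, 1.11 ± 0.34 (SE), with an adjusted p of 0.606 (edgeR), and was higher in every mandible library. Rrm1 overlapped between sites through mandible replicate 1. Of the helicase, Mcm5 measured 17.7, 21.6 and 19.04 CPM in the femur libraries and 19.7, 60.7 and 46.4 CPM in the mandible libraries, a log2 fold change of 1.08 ± 0.36 (SE). Without single libraries that value ranged from 0.70 to 1.43. Mcm3 measured 22.3, 22.9 and 20.2 CPM in the femur libraries and 19.6, 54.2 and 46.9 CPM in the mandible libraries, with mandible replicate 1 again lowest. Cdc45, the helicase cofactor, measured 7.86, 10.02 and 9.59 CPM in the femur against 9.31, 20.5 and 16.7 CPM in the mandible, and Cdt1, the licensing factor, 16.6, 15.4 and 11.7 CPM in the femur against 15.5, 29.8 and 21.4 CPM in the mandible.

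The 4 polymerase and primase genes among the 14 were of low level. Pole, the catalytic subunit of polymerase epsilon, measured 5.02, 6.11 and 4.82 CPM in the femur libraries and 5.06, 16.2 and 12.1 CPM in the mandible libraries, a log2 fold change of 1.03 ± 0.38 (SE). Without single libraries that value ranged from 0.64 to 1.38. Pold1, the catalytic subunit of polymerase delta, measured 7.86, 7.699 and 7.46 CPM in the femur against 8.32, 15.2 and 14.4 CPM in the mandible. Pold2 measured 5.87, 6.11 and 4.42 CPM in the femur against 6.598, 13.2 and 11.2 CPM in the mandible. Pold1 and Pold2 were higher in every mandible library, while Pole overlapped. Prim1, the primase catalytic subunit, measured 6.72, 9.04 and 8.15 CPM in the femur against 7.23, 21.4 and 16.1 CPM in the mandible, with overlap.

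The other 4 were Rfc2, Rfc5, Rpa2 and Lig1. Rfc2 measured 40.4, 46.7 and 40.4 CPM in the femur against 45.6, 66.2 and 63.4 CPM in the mandible. Rfc5, another loader subunit, measured 8.62, 9.84 and 7.803 CPM in the femur against 8.496, 20.1 and 16.7 CPM in the mandible. In both, mandible replicate 1 lay within the femur range. Rpa2 measured 7.96, 10.9 and 8.499 CPM in the femur against 8.77, 20.4 and 17.6 CPM in the mandible, and Lig1 24.4, 31.1 and 26.6 CPM in the femur against 26.3, 79.03 and 46.6 CPM in the mandible. No member had a negative value, and the values closest to 0 were those of Rfc1 (0.02 ± 0.17 (SE)), Gins3 (0.12 ± 0.25 (SE)) and Pola2 (0.18 ± 0.25 (SE)).

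The contrast between sites in cluster 5 minus that in cluster 4 was positive for all 44 members, with a median of 0.59 on the log2 scale beside -0.01 for all genes. Without mandible replicate 2 the median was 0.30, and without mandible replicate 1 it was 0.93. The test of this difference (limma) called 0 members of 0 genes (0% of 11866). An unadjusted p under 0.05 was reached by 3 members with a positive difference and by 0 with a negative one, where 3.43% and 3.34% of all genes reached it, so the count is near the background. The 3 were Tyms, Pola1 and Pold3, each with an adjusted p of 0.737. The same libraries enter both clusters.

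The cells of cluster 5 with the Monocytes label, 488 to 772 per library, held the widest contrast. All 44 members had higher fitted values in the mandible, with a median log2 fold change of 0.87 beside 0.00 for all 11364 genes tested. At a false discovery rate of 0.05, 0 members were called by edgeR, where 0.0968% of all genes were, and 17 members were called by DESeq2, where 2.97% of all genes were. An unadjusted p under 0.05 was reached by 35 members higher in the mandible (6.94% of all genes) and by 0 lower (6.27%). Most members follow each other over clusters and libraries, so counts of members, here and in the other comparisons, are not counts of independent results. Every mandible library exceeded every femur library for 23 members (10.6% of all genes) and lay below for 0 (7.18%). The smallest adjusted p of a member was 0.0983. Without mandible replicate 1 edgeR called 27 members (4.98% of all genes), and without any 1 of the other 5 libraries it called 0. Blocked by library number, over the 4 libraries that share 6 or 7, it called 22 members (7.08% of all genes), and with the replicate number of the titles as a block 4 (0.730%). The block by library number leaves out femur replicate 1 and mandible replicate 3 and has few libraries left to estimate the spread. In cluster 1 it called 14.1% of all genes, against 0.0842% without a block over 6 libraries.

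The summed members measured 747, 684 and 844 CPM in the femur libraries and 901, 1690 and 1472 CPM in the mandible libraries. All mandible libraries were above all femur libraries, with mandible replicate 1 close to the femur. In the pair with number 6 the median log2 ratio of the members was 0.41, with 41 of 44 higher in the mandible, and in the pair with number 7 it was 1.08, with 43 higher. Leaving out 1 library at a time moved the median log2 fold change between 0.64 and 1.15. Femur replicate 3, the highest femur library for most members, and mandible replicates 2 and 3 also carried the highest summed neutrophil precursor markers. That sum was not split by gene in these cells. Over all of cluster 5, Fcnb made up 263 of its 403 CPM in femur replicate 3, and had a log2 fold change of -0.48. Elane, Mpo, Prtn3 and Ctsg had positive values there, from 1.11 to 1.85. The part of these markers in the members' contrast was not tested.

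**Figure D3:**
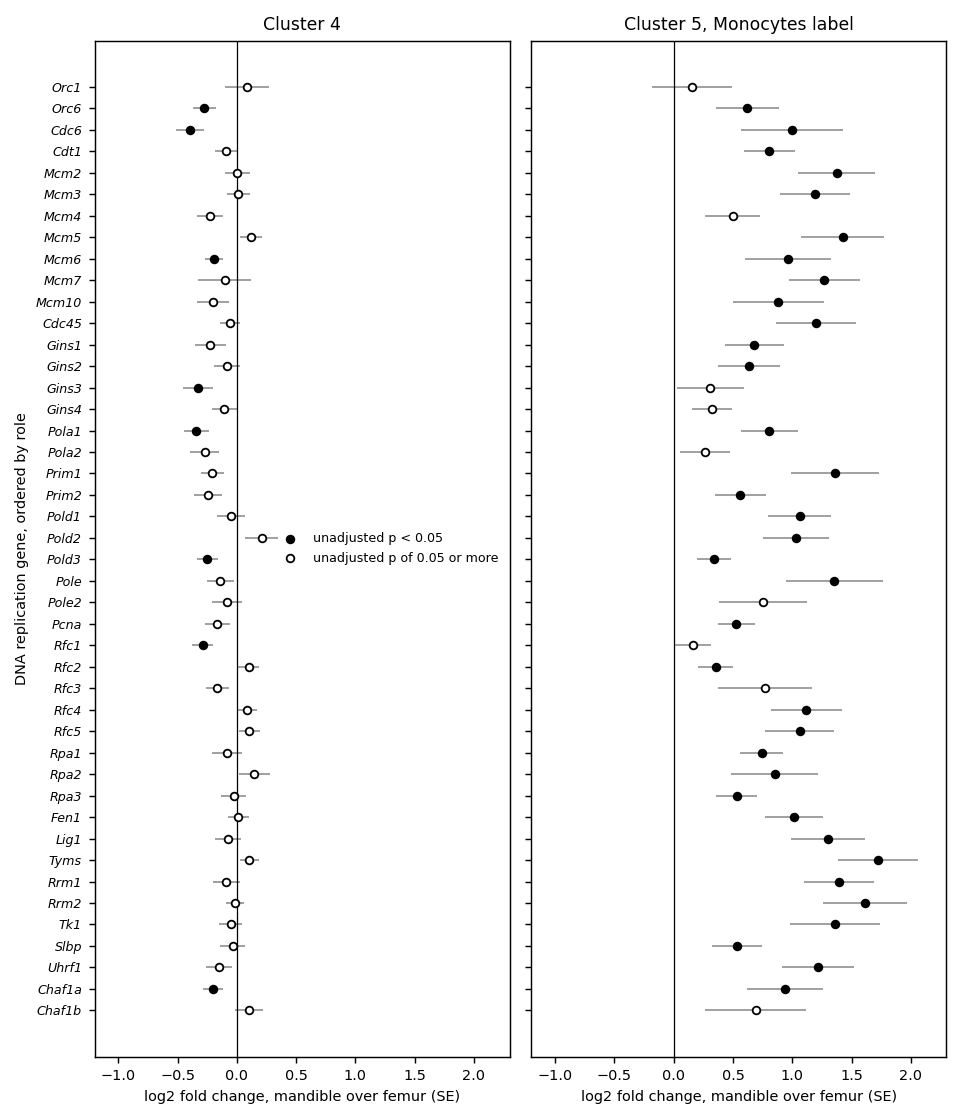
Log2 fold change, mandible over femur, with SE (horizontal axis) for the 44 genes (rows, ordered by role) in cluster 4 and in the cluster 5 cells with the Monocytes label. In cluster 4 the values lie on both sides of 0, with 8 of unadjusted p under 0.05, all negative, and in the monocyte-labelled cells all 44 are positive, 35 of them at that p.

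Nucleotide supply showed the largest contrast of the roles, with all 4 genes at an unadjusted p under 0.05 and a median log2 fold change of 1.51. Tyms measured 11.2, 9.504 and 14.99 CPM in the femur libraries and 20.6, 52.1 and 46.9 CPM in the mandible libraries. Its log2 fold change was 1.72 ± 0.33 (SE) with an adjusted p of 0.0983 (edgeR). Rrm2 measured 14.4, 16.98 and 26.9 CPM in the femur libraries and 32.8, 86.4 and 63.4 CPM in the mandible libraries, at 1.62 ± 0.35 (SE). Rrm1 measured 22.2, 20.1 and 25.7 CPM in the femur libraries and 32.003, 75.9 and 74.02 CPM in the mandible libraries, at 1.40 ± 0.30 (SE). These 3 genes were higher in every mandible library. Tk1, the thymidine kinase of the salvage pathway, measured 7.52, 6.34 and 8.96 CPM in the femur against 8.61, 27.1 and 23.8 CPM in the mandible, where mandible replicate 1 lay within the femur range.

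Of the 6 helicase subunits 5 reached an unadjusted p under 0.05, all but Mcm4. Mcm5 measured 16.7, 13.9 and 22.9 CPM in the femur libraries and 24.2, 68.3 and 53.2 CPM in the mandible libraries. Mcm3 measured 15.4, 15.97 and 22.7 CPM in the femur libraries and 24.04, 48.5 and 53.98 CPM in the mandible libraries. Mcm7 measured 28.5, 25.5 and 25.2 CPM in the femur libraries and 41.6, 100.4 and 50.9 CPM in the mandible libraries. None of these overlapped between sites, with log2 fold changes of 1.42 ± 0.35 (SE), 1.19 ± 0.29 (SE) and 1.27 ± 0.30 (SE). Without single libraries these ranged from 1.07 to 1.75, 1.00 to 1.48 and 0.77 to 1.51. Mcm4 measured 17.5, 14.8 and 19.1 CPM in the femur against 16.7, 31.4 and 25.5 CPM in the mandible, at 0.50 ± 0.23 (SE). The licensing genes Cdt1, Cdc6 and Orc6 lay at 0.81 ± 0.22 (SE), 1.00 ± 0.43 (SE) and 0.62 ± 0.27 (SE), and Orc1, at 2.24 to 4.20 CPM, at 0.16 ± 0.34 (SE).

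The polymerase and primase genes had a median of 0.81, with 7 of 9 at an unadjusted p under 0.05. Prim1 measured 3.66, 4.94 and 7.76 CPM in the femur libraries and 7.798, 16.4 and 19.1 CPM in the mandible libraries. Pole measured 3.66, 4.44 and 4.998 CPM in the femur libraries and 4.71, 15.8 and 13.9 CPM in the mandible libraries, with mandible replicate 1 inside the femur range. Pold1 measured 6.504, 6.08 and 6.204 CPM in the femur libraries and 8.61, 17.2 and 14.1 CPM in the mandible libraries, without overlap. Their log2 fold changes were 1.36 ± 0.37 (SE), 1.36 ± 0.41 (SE) and 1.06 ± 0.26 (SE). The 2 members of this role that did not reach that p were Pola2 (0.27 ± 0.21 (SE)) and Pole2 (0.75 ± 0.37 (SE)).

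The clamp, its loader and the remaining roles spanned a wide range. Pcna, the highest member in these cells, measured 91.1, 80.1 and 91.2 CPM in the femur libraries and 104, 151 and 129 CPM in the mandible libraries, at 0.53 ± 0.15 (SE). Rfc1 measured 77.2, 58.9 and 67.4 CPM in the femur libraries and 63.03, 77.7 and 90.3 CPM in the mandible libraries, at 0.16 ± 0.15 (SE). Rfc2 measured 47.6, 49.04 and 47.9 CPM in the femur libraries and 50.04, 68.3 and 69.8 CPM in the mandible libraries, at 0.35 ± 0.15 (SE). The loader subunits that were high in every cluster thus had smaller fold changes here than Rfc4 (1.12 ± 0.30 (SE)) and Rfc5 (1.06 ± 0.29 (SE)), a difference between genes that was not tested. Lig1 measured 18.9, 16.7 and 24.3 CPM in the femur libraries and 27.6, 71.2 and 51.1 CPM in the mandible libraries, at 1.30 ± 0.31 (SE). Uhrf1, which brings maintenance DNA methylation to replicated DNA, lay at 1.22 ± 0.31 (SE), and the 3 RPA genes between 0.53 and 0.85.

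**Figure D4:**
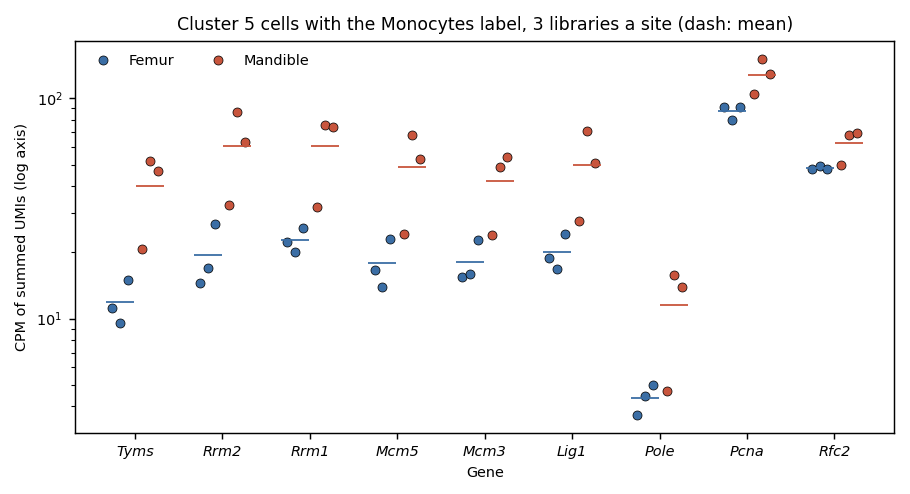
CPM on a log axis (vertical) of 9 of the genes in the cluster 5 cells with the Monocytes label, with 1 point per library and a dash at the mean of 3 libraries per site. Mandible replicates 2 and 3 lie above all femur libraries for each gene shown, and mandible replicate 1 lies closer to the femur, inside its range for Pole.

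A list of 44 other genes of replication and its control, written by role with earlier results of these data known, was read in the same monocyte-labelled cells. Of its 42 members tested, 0 were called, where 0.0968% of all genes were, 26 reached an unadjusted p under 0.05 higher in the mandible (6.94% of all genes) and 0 lower (6.27%), and the median log2 fold change was 0.68. The cyclins Ccna2 and Ccne1 had log2 fold changes of 1.59 and 1.79, and Asf1b, a histone chaperone, 1.37. Gmnn, which encodes geminin, the inhibitor of relicensing, had 1.09. Genes of the origin recognition complex that are not members lay near 0, with 0.26 for Orc2, -0.10 for Orc3, -0.18 for Orc4 and -0.07 for Orc5. Samhd1, which breaks down nucleotides, had -0.35 with an unadjusted p of 0.0792.

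Markers of other cells also varied over the libraries in these monocyte-labelled cells. The 5 dendritic cell markers (Flt3, H2-Aa, H2-Ab1, Siglech, Xcr1) summed to 1541 to 2434 CPM in the femur and 498 to 895 CPM in the mandible, a sum not split by gene here. The 5 macrophage markers summed to 379 to 461 CPM and 127 to 279 CPM. The 6 monocyte markers were at 6206 to 7216 CPM and 7884 to 8016 CPM. Neutrophil precursor markers (all 5 detected) measured 138, 140 and 270 CPM in the femur and 109, 473 and 417 CPM in the mandible. The B lineage markers measured 13.01, 19.5 and 23.3 CPM in the femur and 15.6, 45.0 and 33.9 CPM in the mandible, and the immature neutrophil markers were highest in femur replicate 3. The stem and progenitor markers Kit, Cd34, Cd27 and Gata2 summed to 9.76 to 13.9 CPM and 11.3 to 13.5 CPM. Tooth and bone markers were at 0.407 to 1.27 CPM and 13.2 to 28.3 CPM. The part of any of these in the members' contrast was not tested.

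The cells also carry phase calls. The authors made these from Seurat's S and G2M gene lists. Of the 44 members, 20 are on the S list, which was written here from memory. The level of the members within a call is thus fixed in part by the call. The split does not tell apart more cycling cells from a higher level per cell. In the monocyte-labelled cells 6.97%, 6.48% and 13.7% were called S or G2M in the femur libraries and 10.3%, 33.5% and 21.0% in the mandible libraries. The difference was 12.6 percentage points, with an exact 2-sided permutation p of 0.2 where the smallest possible is 0.1. Over the 45 shares tested in this way the adjusted p was 0.9 or more, and 2 reached the unadjusted p of 0.1. It fell to 6.64 points without mandible replicate 2 and was 18.2 without mandible replicate 1. In the pair with number 6 the difference was 3.85 percentage points and in the pair with number 7 it was 19.9. The G2M call made up most of it, with 5.12%, 4.66% and 11.1% in the femur and 9.02%, 26.9% and 16.9% in the mandible.

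Within the G1-called monocyte-labelled cells, 442 to 722 per library, the summed members measured 498, 466 and 479 CPM in the femur and 469, 514 and 528 CPM in the mandible. The sites overlapped. With these cells alone edgeR called 0 members (0.169% of all genes), the median log2 fold change was 0.03 over the 32 members past the filter, and 20 were positive and 12 negative, a fit added after the data had been seen. Within the G2M-called cells the sums were 2527, 2269 and 1485 CPM and 2265, 2195 and 2360 CPM, again with overlap. Within the S-called cells, only 8 to 44 per library, they were 4988, 4643 and 4694 CPM in the femur and 6908, 6368 and 6553 CPM in the mandible, without overlap. In the S-called cells with the Neutrophils label of this cluster, 6 to 61 per library, the sums overlapped, at 2992, 3729.7 and 2139 CPM in the femur and 2880.2, 2374 and 3108 CPM in the mandible. Under the S call in the monocyte-labelled cells, the 24 members not on the S list, as written from memory, summed higher in every mandible library. The sums were 2078, 1966 and 1853 CPM in the femur and 2995, 2735 and 2716 CPM in the mandible. Most members followed each other over clusters and libraries, so this sum is not independent of the call. The median UMI count of these few S-called monocyte-labelled cells differed widely, from 1594 in femur replicate 1 to 21148 in mandible replicate 3, and its part in the difference was not tested.

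**Figure D5:**
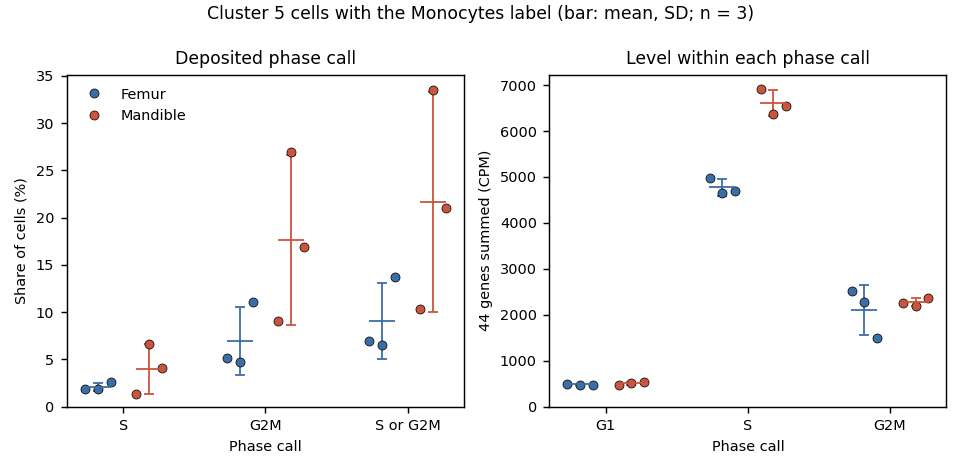
Left, share of cluster 5 cells with the Monocytes label that carried each phase call, and right, summed CPM of the 44 genes within each call, by library (points) with the mean and SD of 3 libraries per site. The shares of cycling calls are high in mandible replicates 2 and 3, the G1 and G2M levels overlap between sites, and the S levels, from 8 to 44 cells per library, do not.

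Over all S-called cells of cluster 5, 21 to 150 per library and of all labels, 0 members were called (0% of 9130 genes called), the median log2 fold change was 0.28 (0.10 without femur replicate 3, 0.44 without femur replicate 2), and 39 of 44 values were positive. An unadjusted p under 0.05 was reached by 6 members, all higher in the mandible (3.03% of all genes), and by 0 that were lower (4.52%). The median UMI count of these S-called cells was 1639.5 in femur replicate 1 and 8705 to 25791 in the other libraries. Its part in these values was not tested. As counted, 4.098% to 6.84% of monocyte-labelled cells held a UMI of Tyms in the femur libraries and 7.21% to 21.1% in the mandible libraries, at median depths of 8022 to 10258 UMIs per cell. In cluster 2, where the mature neutrophil markers (Cxcr2, Il1b, Retnlg, Mmp8, Csf3r) measured 26990 to 32399 CPM and which should lack it, the share was 0.0867% to 0.823%. After each cell was thinned to 1000 UMIs, the monocyte shares were 0.389% to 1.14% and 0.984% to 3.01%, and those of cluster 2 at most 0.271%. Cluster 2 had median depths of 5088 to 7106.5 UMIs per cell.

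No member was called in the other labels of cluster 5 with enough cells, and their difference from the Monocytes label was not tested. In cells with the Neutrophils label the 44 members had a median log2 fold change of 0.21, with 36 positive, 0 called (0.0603% of all genes called) and sums of 643, 723 and 688 CPM against 477, 983 and 796 CPM. The sign of that median turned without mandible replicate 2, at -0.05, and it rose to 0.44 when mandible replicate 1 was left out and to 0.36 for femur replicate 3. In cells with the Macrophages label, 46 to 167 per library, 15 members passed the filter, with a median of 0.05 (-0.21 to 0.29 without single libraries, 0.61 with the library number block in 4 libraries) and 0 called (0.0445% of all genes). The few cells with the Stem cells label numbered 11, 15 and 8 in the femur libraries and 5, 44 and 17 in the mandible libraries. They carried sums of 4339, 8076 and 3917 CPM in the femur and 6230, 5777 and 6572 CPM in the mandible. Cells with the pro-B label numbered 10, 9 and 8 in the femur libraries and 1, 35 and 18 in the mandible libraries. Both labels had too few cells to test, and their part in the cluster 5 values was not tested.

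In the remaining clusters 0 members were called. Of all genes, 0.0163% were called in cluster 0, 0.0842% in cluster 1, 0.0416% in cluster 2, 0.0108% in cluster 3, 0% in cluster 6, 0.0842% in cluster 7 and 0% in cluster 8. The filter on low counts passed 43, 34, 22 and 21 members in clusters 0 to 3, with medians of 0.01, 0.01, -0.01 and -0.07. In cluster 6 it passed 40, with a median of 0.32, 33 positive and 1 higher at an unadjusted p under 0.05 (1.53% of all genes), which is near the background, and the libraries overlapped, at 1833, 1893 and 2814 CPM against 1890, 3482 and 2265 CPM. That median was -0.01 without mandible replicate 2, 0.19 without femur replicate 2, 0.21 without femur replicate 1 and 0.56 without femur replicate 3. The filter passed 7 members in cluster 7 and 13 in cluster 8. Over all cells of a library 0 members were called (0% of 16381 genes called), the median was 0.08 (-0.09 without mandible replicate 2 to 0.27 without mandible replicate 1, and -0.04 without femur replicate 2), and the sums were 849, 754 and 841 CPM against 639, 1037 and 977 CPM. DESeq2 called 0 members in these comparisons, where it called 0.399%, 2.84%, 1.85% and 0.367% of all genes in clusters 0 to 3, 0% in cluster 6, 0.337% in cluster 7, 0.0786% in cluster 8 and 1.46% over all cells.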

How the data were processed

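The deposited matrices contain raw UMI counts for each gene in each barcode, from Cell Ranger on mm10 (version 7.0.1 in the submitters' notes and the methods, another in the matrix header), without pooling. The use of strand is not given in the sources used here. The metadata deposited by the authors give UMI counts, the mitochondrial percent, S and G2M scores, phase calls, cluster numbers and ImmGen labels of kept cells (600 to 6000 genes). The authors regressed the difference of the cycle scores before integration and clustering, so clusters depend on it, while the raw counts used here do not. A deposited table of cluster markers (fold changes and p-values over cells) was not used.

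UMIs of kept cells were summed per library and cluster, label or phase, at least 10 cells per library for a cluster and 20 for a label. Sums were tested with edgeR 4.0.16 (TMM, filterByExpr, quasi-likelihood, Benjamini-Hochberg over all genes tested, false discovery rate 0.05), one fit per comparison over the 6 libraries without covariates. Differences between clusters used limma 3.58.1 on log2 CPM (prior count 2), and phase shares used exact permutation tests. Totals were 82962160 to 244946998 UMIs per library. DESeq2 1.42.0, RLE factors, no filter, single libraries left out, replicate blocks and cells of highest UMI count left out were alternatives. Doublets were not called. The edgeR step was tested on simulated counts. Gene lists, the rule for genes given by library (the 6 highest in cluster 4, the 3 largest rises and falls and each unadjusted p under 0.05 in clusters 4 and 5) and the members were chosen with earlier results of these data known, and the values by gene in monocyte-labelled cells were chosen after they had been seen. The S list was written from memory of the Seurat list. Promoters came from RefSeq (GRCm38.p6). One gene among those most like the members is not reported here.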

Additional observations from a re-analysis of the deposited data

How the results depend on the processing

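Calls among the members depended on the setting mainly in monocyte-labelled cells of cluster 5, where edgeR over 6 libraries called 0. There, 17 members were called by DESeq2 (2.97% of all genes), 24 without the filter on low counts (3.23%), 4 with the title replicate number as a block (0.730%), 22 in the 4 libraries of numbers 6 and 7 blocked by that number (7.08%), and 0 to 27 when single libraries were left out, the 27 without mandible replicate 1 (4.98%), and all were higher in the mandible. With G1-called cells alone the median log2 fold change there was 0.031, and Lig1 (-0.24), Pold1 (-0.15) and Rrm1 (-0.10) turned sign. In cluster 5 and for the difference between clusters 5 and 4 the count stayed at 0 in every setting run. Without the filter 1 member was called in each of clusters 1, 2 and 7 and the Neutrophils label of cluster 4, and 2 in the S-called cells of cluster 4 (0.681% to 2.64% of all genes), while the medians of clusters 1 and 3 moved to -0.094 and -0.24. With the library number block 4 members were called in cluster 1 (14.1% of all genes), 1 in cluster 3 (5.28%) and 1 in the Neutrophils label of cluster 4 (4.13%), and the median of the Macrophages label moved to 0.61. Leaving out single libraries moved the medians of clusters 0, 1 and 2 within -0.22 to 0.18, -0.021 to 0.16 and -0.060 to 0.077. That of cluster 3 moved within -0.17 to -0.056. The G2M share of cluster 4, lower by 1.96 percentage points in the mandible, ranged from -3.68 to 0.409 without single libraries, and was 1.74 without the cells of highest UMI count, where the summed members rose to 2668 CPM. In cluster 4 several values near 0 turned sign. With the library number block they were Lig1 (0.053), Mcm7 (0.23), Rpa2 (-0.031), Rrm1 (0.052) and Rrm2 (0.0048). Without single libraries the ranges that crossed 0 were -0.17 to 0.034 for Lig1, -0.28 to 0.12 for Mcm7, -0.0023 to 0.26 for Rpa2, -0.17 to 0.016 for Rrm1, -0.037 to 0.0032 for Rrm2 and -0.094 to 0.068 for Slbp. The cause of these moves was not tested. By title number, deviations from the site mean in monocyte-labelled cells correlated at 0.217, -0.308 and 0.120, against 0.371 and 0.438 for the pairs of library numbers 6 and 7 (10219 genes, which are not independent). In cluster 5 they correlated at 0.215, -0.092 and 0.108 by title number, against 0.157 and 0.310 by library number. The deviations of a site are tied to its own mean, so these correlations cannot show how libraries were paired. Few cells limit the values of the S-called monocyte-labelled cells, cluster 8 and the Stem cells label, and low counts those of Orc1 and Cdc6 in monocyte-labelled cells, at 11 to 26 and 12 to 51 UMIs per library.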

Other observations

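Barcodes outside the kept cells also held replication transcripts. Those with 6000 genes or more, 38 to 153 per library, had the 44 members at 1365, 2753 and 1554 CPM in the femur libraries and 1594, 2207 and 1627 CPM in the mandible libraries, above the 639 to 1037 CPM over the kept cells of the libraries. The sites overlapped. The other removed barcodes, 268 to 383 per library and 2265 in femur replicate 1, had them at 594 to 833 CPM in the femur and 381 to 387 CPM in the mandible. Their makeup differed as well, with immature neutrophil markers at 8487 to 39024 CPM in the femur and 3666 to 6252 CPM in the mandible, and erythroid markers at 4596 to 77068 CPM and 71136 to 219116 CPM, whose part in the difference was not tested.

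The cluster 5 cells with the DC label, 16 to 40 per library and so not tested, had the summed members at 734, 950 and 1773 CPM in the femur libraries and 1724, 2184 and 1644 CPM in the mandible libraries.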
